A study of Arabidopsis thaliana with 24 samples.

Results

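The shoot transcriptome of the Arabidopsis thaliana catalase mutant cat2 was compared between 24 h and 0 h of photorespiratory stress, over every gene measured. The comparison rests on 6 of the 24 libraries of the series, 3 from cat2 at 24 h and 3 from cat2 at 0 h, which were taken by genotype and time in the sample labels and by no measured value. The stressed plants were cat2 seedlings whose plates had been sealed with Parafilm and moved to continuous light for 24 h, and they were set against cat2 seedlings sampled at 0 h. For the question of what is particular to cat2, the same comparison was made in the double mutant cat2shr, which also carries a mutation in SHORT-ROOT, and in the wild type Col-0, with 3 libraries per genotype and time. All groups were shoots of 3-week-old seedlings of the Columbia-0 ecotype. They had grown for 21 days on MS agar with 1% sucrose at 21 °C, in days with 16 h of light (100 µmol per square metre and second) and 8 h of darkness, under plates closed with a tape that lets gas through. The labels name neither the cat2 allele nor the number of plants behind a library. Unsealed plants at 24 h were not analysed here, so restricted gas exchange, the change to continuous light and the elapsed time cannot be told apart.

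Photorespiration starts when Rubisco fixes oxygen in place of carbon dioxide, and glycolate oxidase then releases hydrogen peroxide in leaf peroxisomes. CATALASE2 (CAT2) is the main leaf enzyme that removes this peroxide, and cat2 plants are a standard system for peroxide that arises inside the cell in the light. A plant cell that meets oxidised proteins, damaged DNA or a shortage of carbon answers with separate gene programmes, among them chaperones and the proteasome, checkpoint and repair genes, and starvation genes.

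The cat2 libraries held 30.21, 31.17 and 34.31 M counts at 24 h, against 28.18, 28.64 and 29.77 M counts at 0 h. The first principal component of the log2 values separated the times and held 92.3% of the variance. Values are given in CPM (the count of a gene scaled to a common library size by the trimmed mean of M-values), in the order of replicates 1, 2 and 3. Changes are log2 ratios of 24 h over 0 h with a standard error (SE) and a Benjamini-Hochberg adjusted p from edgeR's quasi-likelihood test, and a gene was called at an adjusted p under 0.05. Replicate 3 at 24 h stood nearest to 0 h. Among genes called and at least 2-fold higher it was the lowest of the 24 h libraries in 80.5%, and among those at least 2-fold lower it was the highest in 73%. CAT2 (AT4G35090) measured 29.7, 30.2 and 24.4 CPM at 24 h, against 13.1, 18.4 and 20.9 CPM at 0 h. In Col-0 its means were 890.4 ± 221 CPM at 24 h and 374 ± 150.3 CPM at 0 h (SD, n = 3). Every cat2 library lay far below the Col-0 means, and CAT2 passed the test for a rise at 24 h by a narrow margin (log2 0.68, SE 0.30, adjusted p = 0.0492). Leaving out any 1 of the 6 cat2 libraries ended that call (adjusted p from 0.0503 to 0.228). Of the other catalases, CAT1 rose (log2 0.74, SE 0.16, adjusted p = 0.00029), with 196, 244 and 149 CPM at 24 h, against 121, 119 and 111 CPM at 0 h, and CAT3 did not pass the test (log2 0.05, SE 0.23, adjusted p = 0.859).

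Of 20347 genes tested, 15265 (75%) were called in the cat2 response, 7876 higher (38.7%) and 7389 lower (36.3%). At least 2-fold changes were called for 6965 genes (34.2%), 3371 higher (16.6%) and 3594 lower (17.7%). Changes of at least 4-fold were called for 1392 genes that rose and 1017 that fell, and changes of at least 16-fold for 280 and 85. The median log2 change over all genes tested was 0.03 (-0.08 when libraries were scaled by their totals alone) and the median absolute change 0.70, against 0.49 in cat2shr and 0.43 in Col-0. With so many genes called, a list is read below by how far its share and its median depart from these values. No list was tested as a set. In bulk shoots, fewer cells of a type and less RNA per cell cannot be told apart.

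**Figure D1:**
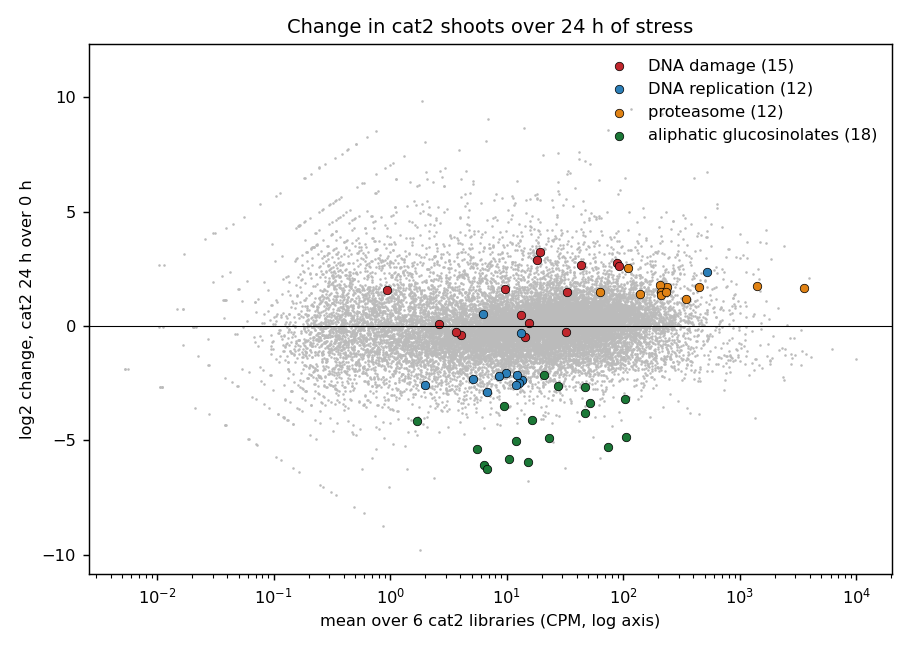
Each point is a gene of the cat2 response, with its mean over the 6 cat2 libraries (CPM, log axis) against its log2 change (24 h over 0 h, n = 3 libraries each). Coloured points are members of the lists on DNA damage, DNA replication, the proteasome and aliphatic glucosinolates, and grey points are all other genes. The 12 proteasome members lie between 1.19 and 2.54 and the 18 aliphatic glucosinolate members between -6.25 and -2.16.

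Genes of the DNA damage checkpoint rose in cat2 while genes of DNA replication and mitosis fell. Of 15 members of a list of cell cycle inhibitors and DNA damage response genes, 9 rose, 8 of them at least 2-fold, and 3 fell, with a median log2 change of 1.51. The count that fell was 1 without replicate 3 at 0 h and without replicate 1 or replicate 2 at 24 h. Of 12 DNA replication genes 2 rose and 10 fell (median -2.26), and of 19 mitosis genes 1 rose and 18 fell (median -1.93).

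BRCA1, which acts in DNA repair, measured 82.9, 68.7 and 74.5 CPM at 24 h, against 9.32, 13.8 and 12.9 CPM at 0 h (log2 2.65, SE 0.25, adjusted p = 1.66e-08). PARP2 (AT4G02390), a poly(ADP-ribose) polymerase that reacts to DNA breaks, measured 161, 130.3 and 171 CPM at 24 h, against 18.0, 28.4 and 21.9 CPM at 0 h (log2 2.76, SE 0.20, adjusted p = 2.61e-10). XRI1, which is induced by X-rays and acts in repair and meiosis, measured 165, 135 and 171 CPM at 24 h, against 18.8, 31.2 and 26.3 CPM at 0 h (log2 2.63, SE 0.18, adjusted p = 1.79e-10). In these 3 genes the times did not overlap, as in 76.9% of genes tested, and replicate 3 was not the lowest of the 24 h libraries. PARP1 rose as well (log2 1.51). SMR7 (AT3G27630), a SIAMESE-RELATED inhibitor of cyclin-dependent kinases, measured 36.0, 30.9 and 37.0 CPM at 24 h, against 2.58, 4.79 and 3.65 CPM at 0 h (log2 3.24, SE 0.42, adjusted p = 1.11e-06). KRP1, of the other family of kinase inhibitors, fell by a smaller amount (log2 -0.46). At 0 h SMR7 averaged 3.67 ± 1.10 CPM in cat2 and 0.278 ± 0.0790 CPM in Col-0, and PARP2 22.8 ± 5.29 CPM in cat2 and 8.10 ± 0.736 CPM in Col-0 (SD, n = 3 each). The 0 h means were higher in cat2 in both genes, a difference that was not tested.

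The replication genes that fell included subunits of the MCM helicase, which unwinds DNA at the fork. MCM2 (AT1G44900) measured 4.37, 4.13 and 4.70 CPM at 24 h, against 24.4, 18.9 and 23.9 CPM at 0 h (log2 -2.34, SE 0.14, adjusted p = 1.39e-11). MCM5 and MCM7 fell by a like amount (log2 -2.14 and -2.59). One member moved the other way by a wide margin: TSO2 (AT3G27060), the small subunit of ribonucleotide reductase that supplies deoxynucleotides for both replication and repair, measured 953, 751 and 938 CPM at 24 h, against 132, 208 and 172 CPM at 0 h (log2 2.37, SE 0.21, adjusted p = 6.51e-09). CDC6, a loading factor of the helicase, was the other member that rose (log2 0.52), and its call was lost when any library but replicate 1 at 24 h was left out (adjusted p from 0.0861 to 0.164). Among mitosis genes, the cytokinesis syntaxin KN (log2 -2.36), the Aurora kinase AUR1 (log2 -1.40) and the cyclins CYCA1;1 (log2 -2.81) and CYCB1;2 (log2 -2.71) all fell. CYCB1;2 (AT5G06150) measured 2.14, 1.88 and 3.99 CPM at 24 h, against 20.9, 16.0 and 16.2 CPM at 0 h. The single mitosis member that rose was the related cyclin CYCB1;1 (AT4G37490), which is also a known reporter of DNA damage, with 48.5, 40.8 and 34.5 CPM at 24 h, against 9.69, 14.3 and 11.5 CPM at 0 h (log2 1.80, SE 0.22, adjusted p = 2.93e-07). The 3 libraries of each time did not overlap in either cyclin, and the cyclins moved in opposite directions.

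**Figure D2:**
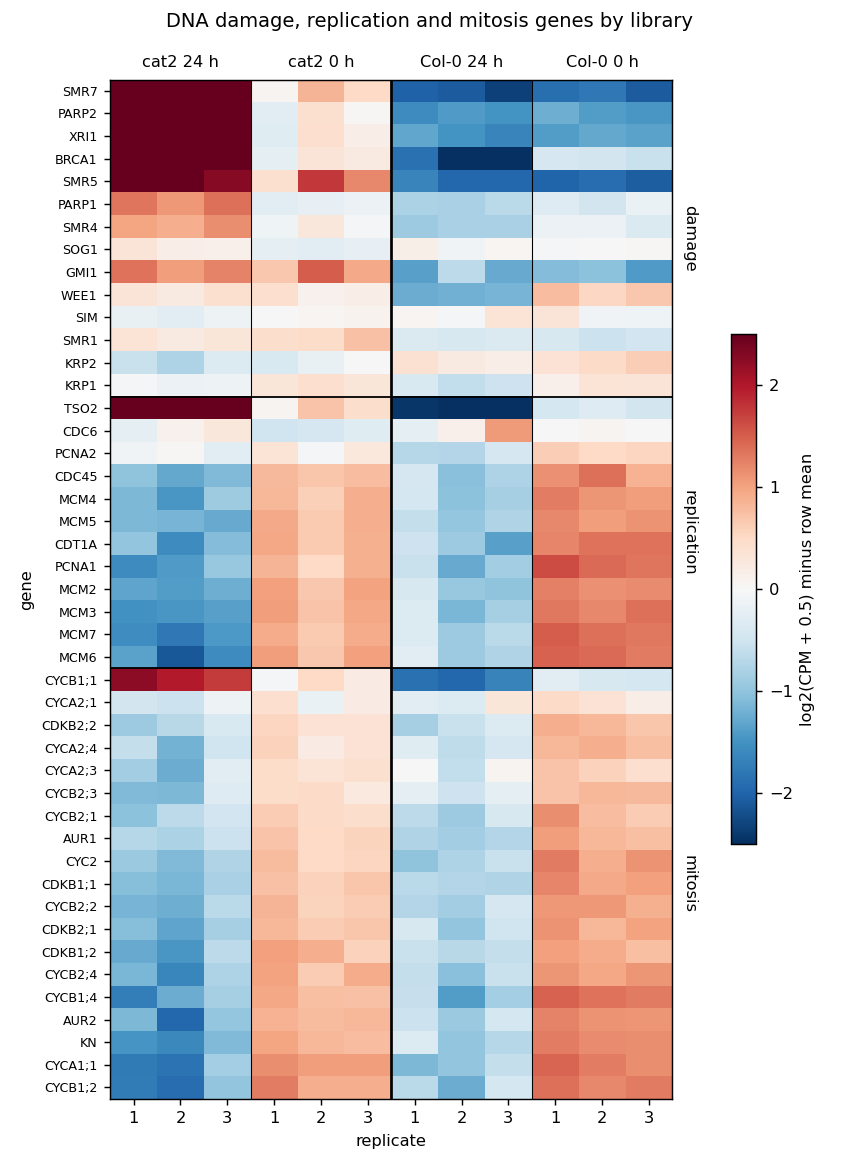
Each row is a gene of the DNA damage, replication or mitosis list and each column a library of cat2 or Col-0, with colour showing log2(CPM + 0.5) minus the mean of that gene over the 12 libraries shown. Colours saturate at the ends of the scale. SMR7, PARP2, XRI1 and BRCA1 are high in the 3 cat2 24 h libraries and low in the 3 Col-0 24 h libraries, as are TSO2 and CYCB1;1 of the lower blocks, where most other genes are low at 24 h in both genotypes.

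The rise of the checkpoint genes was not shared by Col-0 or, but for 1 member, by cat2shr. The response of the single mutant shr was not examined here. Of the 15 members, 9 had a response that differed upward between cat2 and Col-0 (background 18.8% of genes tested), and 10 differed upward from cat2shr (background 15.4%). In Col-0 no member rose (background 29.7%) and 6 fell (29.6%), and in cat2shr 1 rose (32.7%) and 7 fell (31.7%). The log2 response of BRCA1 over 24 h differed from Col-0 by 4.72, SE 0.39, adjusted p = 4.19e-08, and TSO2 by 4.75, SE 0.30, adjusted p = 1.31e-09. CYCB1;1 fell in Col-0 (log2 -1.64) and was at log2 -0.08 in cat2shr, which was not called (adjusted p = 0.774), with a difference of cat2 from Col-0 of 3.44, SE 0.33, adjusted p = 2.05e-07. The replication list had medians of -2.26 in cat2, -1.45 in cat2shr and -2.1 in Col-0. For mitosis the medians were -1.93 in cat2, -0.68 in cat2shr and -1.91 in Col-0, and 13 of 19 members had a lower response in cat2 than in cat2shr by the test of the difference.

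To show the sequence upstream of these genes, the 250 bases before the annotated gene start were read from the TAIR10.1 reference genome with its RefSeq annotation. They were searched on both strands for 13 motifs known from plant promoters. The motifs were the SOG1 motif of CTT and AAG with 7 bases between them, the E2F motif TTCCCGC, the MSA core AACGG, the heat shock element GAANNTTC, the proteasome motif TGGGC, the W-box core TTGAC, the TGA motif TGACG, the mitochondrial dysfunction motif of CTTG and CA with 5 bases between them, the dehydration-responsive element CCGAC, the ABRE core ACGTG, the G-box CACGTG, the P1BS motif GNATATNC and the sulfur-responsive core GAGAC. The ABRE core lies within the G-box, and the W-box core and the TGA motif share letters. Every motif was counted in every list, and shares are given below only for some pairs of motif and list. None is given for the TGA, mitochondrial dysfunction, dehydration-responsive, ABRE, G-box, P1BS and sulfur-responsive motifs. A match describes the letters of the window and is neither a bound site nor a cause. SOG1 is the plant transcription factor that stands in for p53 in the damage response, E2F factors drive genes of the S phase, and the MSA core is bound by MYB3R factors at the G2 to M transition.

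The SOG1 motif was present in 5 of 15 windows of the checkpoint list (33.3%), against 1845 of 20323 windows of all genes tested (9.08%). They included PARP2, SMR4, SMR5 and SMR7. The E2F motif was present in 6 of 12 windows of the replication list (50%), against 254 of all windows (1.25%). The MSA core was present in 12 of 19 mitosis windows (63.2%), against 4434 of all windows (21.8%). The windows are shown 5′ to 3′ on the strand of the gene, with matches of 1 motif per gene in capitals. PARP2 (chr4:1049516-1049765, plus strand) and SMR7 (chr3:10231568-10231817, minus strand) carry the SOG1 motif starting 96 and 43 bases before the gene start. MCM2 (chr1:16969964-16970213, plus strand) carries the E2F motif at 13 bases. CYCB1;1 (chr4:17624309-17624558, minus strand) and CYCB1;2 (chr5:1861704-1861953, minus strand), which moved in opposite directions, hold 3 and 4 MSA cores.
PARP2: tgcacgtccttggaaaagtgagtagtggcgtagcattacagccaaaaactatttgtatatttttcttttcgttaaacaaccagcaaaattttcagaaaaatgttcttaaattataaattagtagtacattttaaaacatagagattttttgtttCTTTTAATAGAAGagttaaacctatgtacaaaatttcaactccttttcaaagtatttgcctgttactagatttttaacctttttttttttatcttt
SMR7: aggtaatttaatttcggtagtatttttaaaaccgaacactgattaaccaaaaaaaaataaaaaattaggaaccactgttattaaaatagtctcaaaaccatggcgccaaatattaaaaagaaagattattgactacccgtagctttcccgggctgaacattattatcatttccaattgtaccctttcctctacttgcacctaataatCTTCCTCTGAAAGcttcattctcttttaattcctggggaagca
MCM2: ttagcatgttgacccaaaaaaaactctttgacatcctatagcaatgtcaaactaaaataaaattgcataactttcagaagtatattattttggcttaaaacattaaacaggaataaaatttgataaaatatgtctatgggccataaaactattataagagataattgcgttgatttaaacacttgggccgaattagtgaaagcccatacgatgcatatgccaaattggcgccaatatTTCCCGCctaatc
CYCB1;1: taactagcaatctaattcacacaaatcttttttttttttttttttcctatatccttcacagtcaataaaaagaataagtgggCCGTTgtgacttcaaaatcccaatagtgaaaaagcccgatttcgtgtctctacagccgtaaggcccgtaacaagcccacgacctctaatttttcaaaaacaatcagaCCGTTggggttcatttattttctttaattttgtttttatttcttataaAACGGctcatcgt
CYCB1;2: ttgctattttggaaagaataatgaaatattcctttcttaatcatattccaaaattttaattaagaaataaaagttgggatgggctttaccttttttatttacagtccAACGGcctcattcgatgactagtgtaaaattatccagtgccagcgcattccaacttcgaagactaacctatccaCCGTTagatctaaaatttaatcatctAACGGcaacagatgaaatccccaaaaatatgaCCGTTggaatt

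The proteasome list rose as a block. All 12 members tested rose and all 12 by at least 2-fold, with log2 changes from 1.19 to 2.54 and a median of 1.59. RPT2a (AT4G29040), an ATPase of the regulatory particle, measured 724, 686 and 649 CPM at 24 h, against 196, 232 and 207 CPM at 0 h (log2 1.70, SE 0.069, adjusted p = 3.11e-13). RPN12a, a lid subunit, measured 329.8, 332 and 296 CPM at 24 h, against 86.2, 97.5 and 92.4 CPM at 0 h (log2 1.79, SE 0.065, adjusted p = 7.65e-14). CDC48, the AAA ATPase that draws ubiquitinated proteins from membranes and complexes, measured 2345, 2092 and 1985 CPM at 24 h, against 586, 714 and 615 CPM at 0 h. In each of these genes every 24 h library lay above every 0 h library. The member with the largest change was NAC053, a transcription factor that binds proteasome gene promoters, with 187, 212 and 165 CPM at 24 h, against 27.5, 39.6 and 29.7 CPM at 0 h (log2 2.54, SE 0.15, adjusted p = 2.48e-11). Its close relative NAC078 rose by 1.4 on the log2 scale. UBQ10, the polyubiquitin gene, was among the 5 most abundant genes at 24 h, with 5843, 6009 and 4536 CPM at 24 h, against 1387, 1824 and 1906 CPM at 0 h. Its repeat units are near-identical to other ubiquitin genes, so its count may share reads with them.

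The proteasome genes changed less in cat2shr and Col-0. The median log2 change was 1.59 in cat2, 0.54 in cat2shr and 0.17 in Col-0, and 11 of 12 members differed upward in cat2 from each of them. RPN12a differed from Col-0 by 1.64, SE 0.091, adjusted p = 2.29e-10 and from cat2shr by 1.22, SE 0.09, adjusted p = 2.82e-08. RPT2a was at log2 -0.01 in Col-0, and the difference was 1.71, SE 0.096, adjusted p = 2.29e-10. The proteasome motif was found in 6 of 12 windows (50%), against 5250 of all windows (25.8%). RPN1A (chr2:8858712-8858961, plus strand), a base subunit of the regulatory particle, holds 4 matches between 72 and 26 bases before its gene start, and RPT2a (chr4:14312033-14312282, plus strand) holds 3.
RPN1A: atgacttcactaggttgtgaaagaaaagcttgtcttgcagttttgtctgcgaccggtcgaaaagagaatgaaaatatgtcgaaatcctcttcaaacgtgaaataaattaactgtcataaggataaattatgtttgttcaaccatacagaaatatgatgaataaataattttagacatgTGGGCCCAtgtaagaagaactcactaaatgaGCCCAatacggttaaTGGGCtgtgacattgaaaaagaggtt
RPT2a: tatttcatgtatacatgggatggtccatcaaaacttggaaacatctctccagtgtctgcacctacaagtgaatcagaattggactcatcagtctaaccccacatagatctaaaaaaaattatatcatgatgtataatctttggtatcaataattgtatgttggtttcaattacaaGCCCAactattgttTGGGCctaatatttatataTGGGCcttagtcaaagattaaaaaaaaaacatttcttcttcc

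Chaperones and their regulators rose as well. Of 18 large chaperones and heat response co-regulators 17 rose and 1 fell (median log2 change 2.44), and of 6 small heat shock proteins that passed the filter 5 rose (median 4.15). Fes1A, a nucleotide exchange factor of cytosolic HSP70, measured 566, 563 and 422 CPM at 24 h, against 22.8, 22.4 and 18.5 CPM at 0 h (log2 4.60, SE 0.27, adjusted p = 4.27e-11). HSP101, the disaggregase required for heat tolerance, measured 201, 198 and 116 CPM at 24 h, against 15.6, 14.0 and 9.50 CPM at 0 h. CLPB4, its mitochondrial counterpart, measured 123, 115 and 104 CPM at 24 h, against 30.4, 31.9 and 28.6 CPM at 0 h. The plastid counterpart CLPB3 was the single member that fell (log2 -0.23), and it was not called without replicate 2 at 0 h or without replicate 2 or 3 at 24 h (adjusted p from 0.0899 to 0.103). The prolyl isomerase ROF1 rose to 275, 268 and 237 CPM at 24 h, against 73.4, 71.6 and 76.0 CPM at 0 h. Among small heat shock proteins, HSP23.6-MITO of mitochondria measured 33.5, 22.3 and 19.1 CPM at 24 h, against 2.08, 1.65 and 0.576 CPM at 0 h, and the cytosolic HSP17.6A measured 158, 114 and 87.9 CPM at 24 h, against 3.08, 7.48 and 2.30 CPM at 0 h. Replicate 1 was the highest and replicate 3 the lowest of the 24 h libraries in both, and all of them exceeded the 0 h libraries.

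Of 17 heat shock factors that passed the filter 13 rose and 3 fell (median 1.20). HSFA2 (AT2G26150), the factor that sustains heat acclimation, measured 59.1, 56.8 and 47.9 CPM at 24 h, against 1.78, 0.708 and 0.544 CPM at 0 h (log2 5.76, SE 0.77, adjusted p = 2.17e-06). HSFA8, one of the factors that move to the nucleus upon oxidation, measured 97.6, 106 and 99.7 CPM at 24 h, against 24.6, 25.5 and 20.5 CPM at 0 h (log2 2.1, SE 0.12, adjusted p = 1.31e-11). HSFA7A (log2 2.75), HSFA4A (log2 2.39) and HSFB2B (log2 2.13) rose, while HSFB4 fell (log2 -0.97). Median changes of the large chaperones were 2.44 in cat2, 0.42 in cat2shr and 0.33 in Col-0. By the test of the difference 14 of the 18 differed upward in cat2 from Col-0, and 16 from cat2shr. Fes1A differed from Col-0 by 3.83, SE 0.35, adjusted p = 2.43e-07, HSP101 by 3.85, SE 0.69, adjusted p = 0.000281 and CLPB4 by 2.16, SE 0.14, adjusted p = 7.28e-10. HSFA8 differed from Col-0 by 1.58, SE 0.17, adjusted p = 7.43e-07.

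The heat shock element GAANNTTC stood in 3 of 17 windows of heat shock factors (17.6%), in 2 of 18 windows of large chaperones (11.1%) and in 1929 of all windows (9.49%). HSFA2 (chr2:11135374-11135623, plus strand) and HSFA7A (chr3:19264891-19265140, plus strand) hold 2 each, which are in capitals.
HSFA2: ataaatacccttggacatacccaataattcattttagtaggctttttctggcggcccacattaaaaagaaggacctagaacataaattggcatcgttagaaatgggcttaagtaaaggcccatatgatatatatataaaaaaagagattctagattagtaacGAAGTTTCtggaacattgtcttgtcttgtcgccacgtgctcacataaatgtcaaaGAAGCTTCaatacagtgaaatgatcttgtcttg
HSFA7A: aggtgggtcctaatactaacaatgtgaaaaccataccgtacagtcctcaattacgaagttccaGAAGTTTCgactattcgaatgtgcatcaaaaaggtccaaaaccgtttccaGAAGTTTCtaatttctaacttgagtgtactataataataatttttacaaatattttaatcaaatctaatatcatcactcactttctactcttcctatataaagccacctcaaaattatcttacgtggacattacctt

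**Figure D3:**
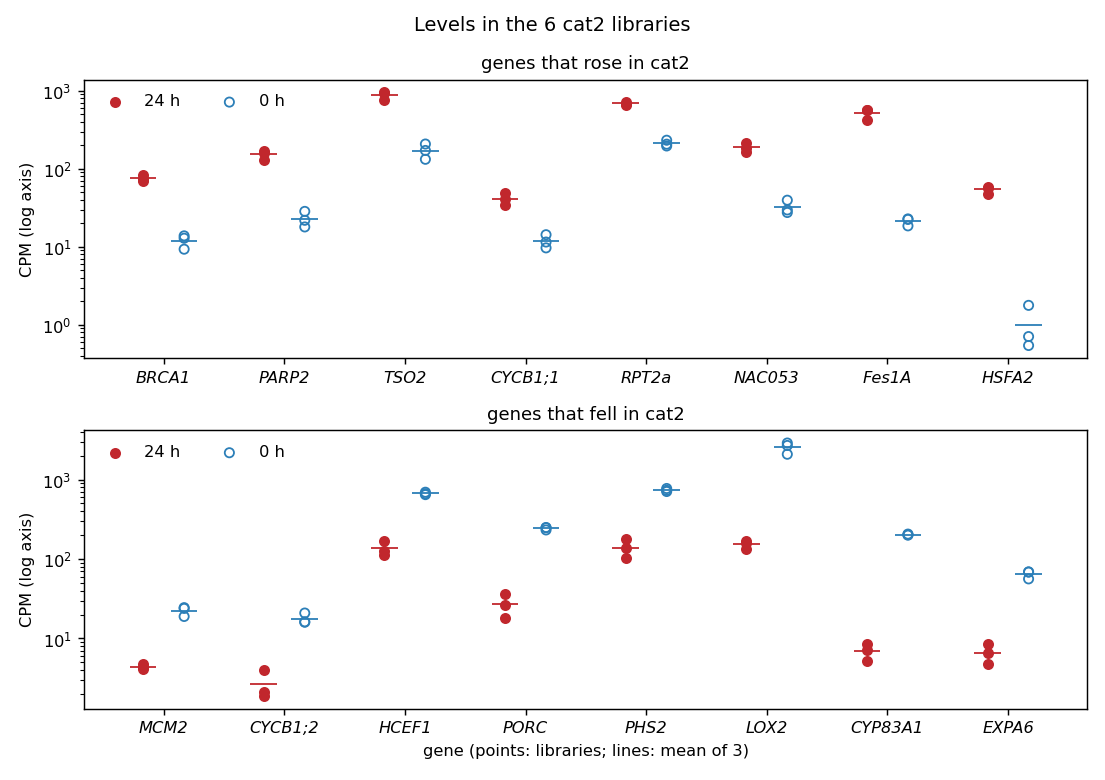
Each point is 1 cat2 library, with CPM on a log axis, for 16 genes of the lists on DNA damage, replication, mitosis, the proteasome, chaperones, photosynthesis, starch, jasmonate, glucosinolates and growth. Filled points to the left are the 3 libraries at 24 h and open points to the right the 3 at 0 h. The 24 h points lie above all 0 h points for the upper row and below them for the lower row.

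The unfolded protein response of the endoplasmic reticulum did not stand out by its counts. Of 21 members 8 rose, a share near the 38.7% of all genes tested, and 6 fell, beside 36.3% of all genes (median 0.12). The members that rose included regulators: NAC103 measured 41.6, 41.2 and 40.1 CPM at 24 h, against 4.43, 7.75 and 5.60 CPM at 0 h, NAC089 rose by log2 1.89 and the membrane-bound factors BZIP60 and BZIP28 by 1.85 and 1.20. The chaperones of the lumen were divided. SHD, the HSP90 of the endoplasmic reticulum, fell (log2 -0.95), BIP1 and BIP2 were not called, and BIP3, the inducible HSP70, rose (log2 2.92). NAC103 differed from its Col-0 response by 3.07, SE 0.69, adjusted p = 0.00181. Autophagy genes rose too. Of 19 members 18 rose, 9 at least 2-fold, and none fell (median 0.93). ATG8B, a ubiquitin-like protein of the autophagosome, measured 150.2, 171 and 128 CPM at 24 h, against 17.9, 20.9 and 16.2 CPM at 0 h. NBR1, the cargo receptor for ubiquitinated aggregates, measured 1252, 1212 and 1042 CPM at 24 h, against 346, 392 and 325 CPM at 0 h (log2 1.72, SE 0.097, adjusted p = 9.80e-12). ATG18A (log2 1.88) and APG7 (log2 1.61) rose as well. Autophagy members also rose in cat2shr (17 of 19) and in Col-0 (16 of 19), with 11 that differed upward and 1 downward in cat2 from Col-0. NBR1 differed from Col-0 by 1.18, SE 0.13, adjusted p = 1.53e-06.

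Genes known to answer hydrogen peroxide rose in cat2, and few of them passed the test for a difference in response from Col-0. Of 21 markers 19 rose, all of them at least 2-fold (median 2.36), against medians of 2.00 in cat2shr and 3.00 in Col-0. By that test 2 markers had a higher response in cat2 than in Col-0, and 1 a lower one (0 to 2 and 0 to 3 over the other settings tried). The means of all 21 markers were higher in cat2 than in Col-0 both with stress and without it, a gap between the genotypes that was not tested. OPR1, an oxophytodienoate reductase family member, averaged 1235 ± 116 CPM in cat2 and 281 ± 197 CPM in Col-0 under stress (24 h). Before stress it averaged 239 ± 23.7 CPM in cat2 and 17.7 ± 2.56 CPM in Col-0 (SD, n = 3 each). DREB2A, a factor of dehydration and heat responses, measured 135, 149 and 83.4 CPM at 24 h, against 8.42, 7.65 and 6.97 CPM at 0 h. WRKY6 (log2 3.30), ZAT6 (log2 3.23) and ERF5 (log2 2.18), all stress transcription factors, rose too. The W-box core, to which WRKY factors bind, stood in 17 of 21 windows of these markers (81%), against 9098 of all windows (44.8%). Genes of the mitochondrial retrograde response rose in 14 of 15 cases (median 1.72), among them the alternative oxidase AOX1A (log2 1.72), its regulators NAC013 and NAC017 (log2 2.29 and 0.66) and the import protein TIM17-1 (log2 3.66). The dicarboxylate carrier DIC1 fell (log2 -0.90). Of the low-oxygen response, 16 of 18 members rose and 2 fell (median 2.03). Sucrose synthase SUS1 measured 169, 161 and 152 CPM at 24 h, against 16.4, 17.1 and 17 CPM at 0 h and differed from Col-0 by 3.16, SE 0.41, adjusted p = 1.08e-05. The ethylene response factors RAP2.3 and RAP2.2, which are stable when oxygen is low, rose by 1.75 and 0.86 on the log2 scale.

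Glutathione S-transferases changed in both directions. Of 36 tau and phi members that passed the filter 24 rose and 7 fell (median 1.65). GSTF6 measured 1151, 1242 and 854 CPM at 24 h, against 41.5, 78.5 and 28 CPM at 0 h (log2 4.46, SE 0.37, adjusted p = 4.01e-09), and the related GSTF2 and GSTF3 rose by 4.18 and 4.83. GSTF2 and GSTF3 are close copies, so their counts may share reads. GSTU20, a member linked to glucosinolate synthesis and jasmonate signalling, fell with 10.9, 11.8 and 15.4 CPM at 24 h, against 151, 121 and 103 CPM at 0 h (log2 -3.30, SE 0.26, adjusted p = 1.98e-09). GSTF11, also coexpressed with glucosinolate genes, fell to 0.138, 0.581 and 0.0855 CPM at 24 h, against 12, 12.3 and 8.54 CPM at 0 h. Of 34 antioxidant enzymes other than catalase 13 rose and 14 fell (median 0.18), shares near the 38.7% and 36.3% of all genes tested. Plastid enzymes were among those that fell, with 2CPB (log2 -1.76), TAPX (log2 -1.50), DHAR3 (log2 -1.32) and FSD2 (log2 -1.29), while the peroxisomal and cytosolic monodehydroascorbate reductase MDAR1 (log2 0.86) and GPX2 (log2 1.27) rose. Cytosolic APX1 measured 1207, 1170.0 and 1177 CPM at 24 h, against 1292, 1375 and 1412 CPM at 0 h and was not called (adjusted p = 0.333), but it was called as lower in a fit on the 6 cat2 libraries alone (log2 -0.25, adjusted p = 0.0339). It rose in Col-0 (log2 1.56), and the difference between the responses was -1.76, SE 0.26, adjusted p = 3.11e-05. Of the 34 members, 14 had a lower response in cat2 than in cat2shr (background 15.6%).

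Photosynthesis genes fell in cat2 almost without exception. All 25 photosystem subunits and electron carriers fell (median -1.33), 19 of 20 antenna genes fell (median -1.32) and 17 of 18 genes of Rubisco and the Calvin cycle fell (median -1.17). PSBQ, a subunit of the oxygen-evolving complex, measured 300.0, 262 and 362 CPM at 24 h, against 1010.4, 957 and 993 CPM at 0 h. LHCA6, an antenna protein that links photosystem I to the NDH complex, measured 18.4, 13.0 and 23.7 CPM at 24 h, against 124, 130.2 and 119 CPM at 0 h. LHCB4.3, the stress-inducible member of its small family, was the antenna gene that rose (log2 0.65). HCEF1, the plastid fructose-1,6-bisphosphatase, measured 127, 111 and 169 CPM at 24 h, against 665, 693 and 646 CPM at 0 h (log2 -2.30, SE 0.14, adjusted p = 1.90e-11). In all but LHCB4.3 of these, every 24 h library lay below every 0 h library. Phosphoglycerate kinase PGK1 (log2 -1.38), sedoheptulose bisphosphatase SBPASE (log2 -1.58) and the GAPDH subunit GAPA-2 (log2 -1.47) fell too. The most abundant transcripts shared this fall. CAB1 measured 5114, 4461 and 6552 CPM at 24 h, against 14646, 14204 and 14461 CPM at 0 h, and RBCS1A, a Rubisco small subunit, measured 3818, 3759 and 4748 CPM at 24 h, against 8099, 8266 and 8315 CPM at 0 h. Both belong to families of near-identical copies whose reads the counting may divide.

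Calvin cycle genes changed by a median of -1.17 in cat2, -0.73 in cat2shr and -0.19 in Col-0, and 14 of 18 had a lower response in cat2 than in Col-0 (background 19.4%), while 7 had a lower response than in cat2shr (15.6%). The antenna had medians of -1.32 in cat2, -1.22 in cat2shr and -1.18 in Col-0, and 5 of 20 members had a lower response in cat2 than in Col-0. That count was 9 without replicate 2 of Col-0 at 24 h and 3 without replicate 1 or replicate 2 of cat2 at 24 h. HCEF1 differed from Col-0 by -1.35, SE 0.18, adjusted p = 1.28e-05. Of 20 genes of the photorespiratory cycle 14 fell and 3 rose (median -0.69), against medians of -0.28 in cat2shr and 0.10 in Col-0, and 14 had a lower response in cat2 than in Col-0. Of these, 13 fell in cat2, and AGT, the serine to glyoxylate aminotransferase, rose (log2 0.32 in cat2 and 0.92 in Col-0), a call in cat2 that was lost when any library but replicate 3 at 24 h was left out (adjusted p from 0.0525 to 0.206). BOU, a mitochondrial carrier needed for glycine decarboxylase activity (log2 -1.20), and DIT2.1, the plastid glutamate and malate exchanger (log2 -0.95), fell. The members that rose included GGT1, a peroxisomal aminotransferase, with 2624, 3097 and 2416 CPM at 24 h, against 1464, 1734 and 1511 CPM at 0 h, and GOX3, a minor glycolate oxidase isoform (log2 1.67).

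Chlorophyll genes followed. Of 16 synthesis genes 15 fell and none rose (median -1.08). The largest fall was that of PORC, a protochlorophyllide reductase, which measured 26, 18.2 and 36.2 CPM at 24 h, against 249, 247 and 232 CPM at 0 h (log2 -3.18, SE 0.22, adjusted p = 2.03e-10). Subunits of magnesium chelatase fell, with CHLI2 at log2 -2.65, CHLI1 at -1.70 and CHLD at -1.08. Of 11 breakdown genes 6 rose and 4 fell. The methylesterase MES16 (log2 4.16) and the pheophytinase PPH (log2 1.39) rose, while ACD2, a reductase of red chlorophyll catabolites (log2 -1.23), and HCAR (log2 -0.96) fell.

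**Figure D4:**
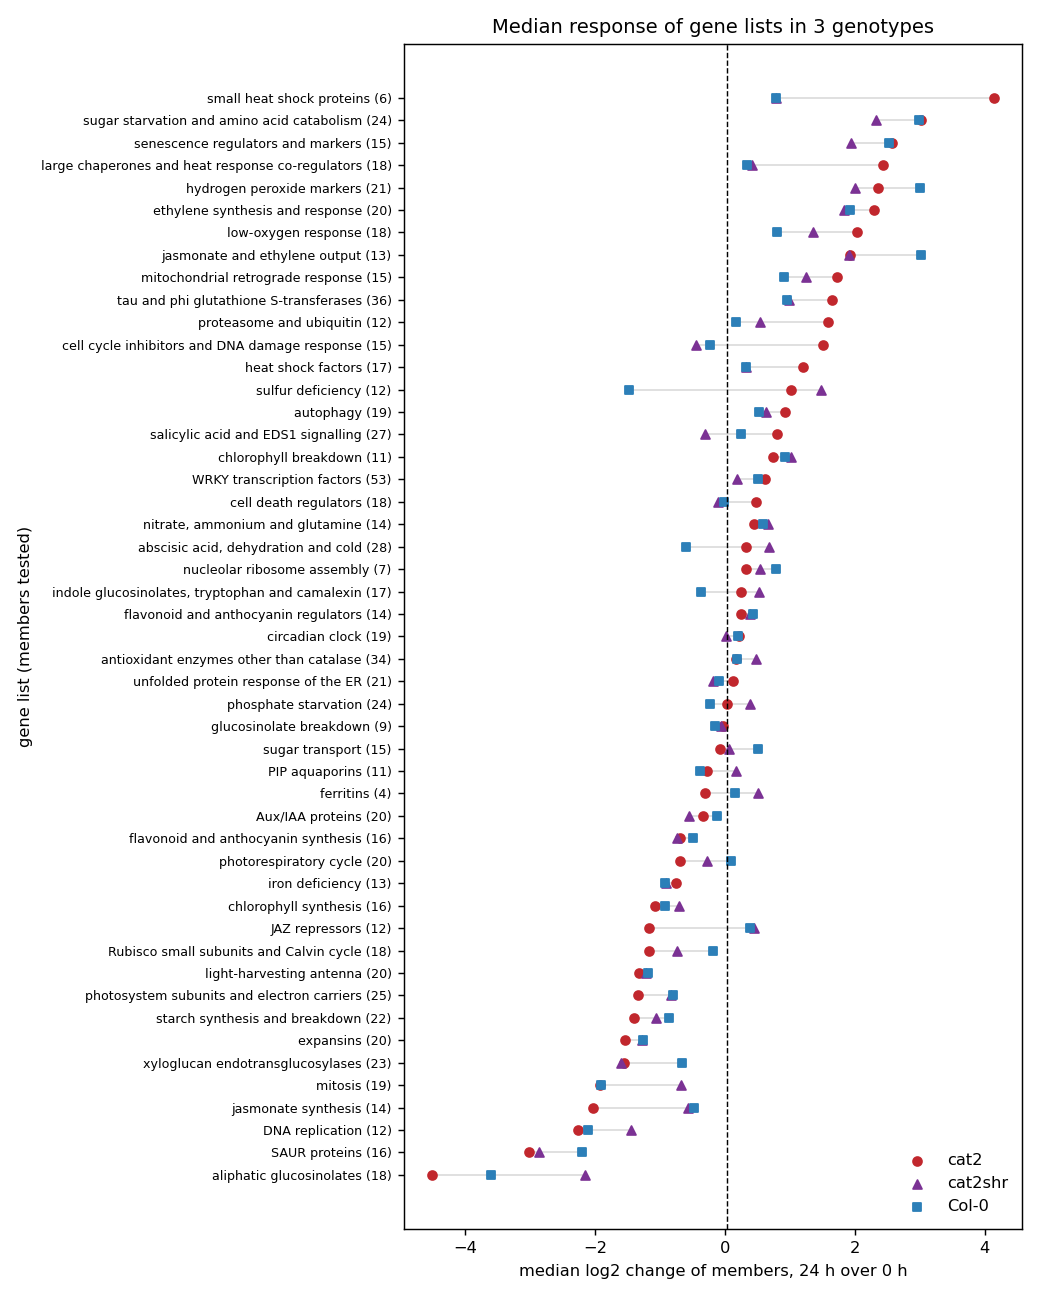
Each row is a gene list and each point the median log2 change (24 h over 0 h) of its members that passed the filter, in cat2, cat2shr and Col-0, with the median over all genes tested in cat2 as a dashed line at 0.03. The proteasome stands at 1.59 in cat2, against 0.54 in cat2shr and 0.17 in Col-0, and sulfur deficiency at 1.02 in cat2 and 1.48 in cat2shr, against -1.47 in Col-0.

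Genes of carbon starvation rose in full. All 24 members of the list of sugar starvation and amino acid catabolism rose, 23 at least 2-fold (median 3.01). THA1 (AT1G08630), threonine aldolase, measured 463, 529 and 285 CPM at 24 h, against 0.671, 0.944 and 0.480 CPM at 0 h (log2 9.25, SE 0.41, adjusted p = 1.88e-12). ETFQO, which passes electrons from branched-chain amino acid breakdown to the respiratory chain, rose by 2.57, MCCA, a subunit of methylcrotonyl-CoA carboxylase, by 3.30, and glutamate dehydrogenase GDH1 by 2.48. ASN1, the dark-inducible asparagine synthetase, rose by 3.65. The median was 2.99 in Col-0, and no member passed the test of the difference between cat2 and Col-0 (at most 3 upward and 5 downward over the other settings tried). In cat2shr the median was 2.32, and 8 members had a higher response in cat2 than there, a count that was 4 or 5 without replicate 3 of cat2 at 0 h, replicate 2 of cat2 at 24 h, replicate 2 of cat2shr at 0 h, or replicate 2 or 3 of cat2shr at 24 h. GAT1_2.1, a glutamine amidotransferase, measured 156, 209 and 79.2 CPM at 24 h, against 0.201, 0.472 and 0.480 CPM at 0 h. It rose in Col-0 as well (log2 7.98) and much less in cat2shr (log2 1.42), with a difference from cat2shr of 7.15, SE 0.69, adjusted p = 1.05e-06.

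Starch genes fell, and sugar carriers moved in both directions. Of 22 genes of starch synthesis and breakdown 17 fell and 3 rose (median -1.39). PHS2, the cytosolic glucan phosphorylase, measured 136, 102 and 176 CPM at 24 h, against 772, 707 and 733 CPM at 0 h (log2 -2.42, SE 0.15, adjusted p = 2.41e-11). Its plastid partner PHS1 (log2 -2.35), the starch synthase SS1 (log2 -1.63) and the branching enzyme SBE2.2 (log2 -1.33) fell. The members that rose included BAM1, the amylase of stress-induced starch breakdown (log2 1.89), and BAM9 (log2 2.41). In Col-0 the median was -0.87, and 13 members had a lower response in cat2. The hexose carriers STP1, with 671, 675 and 549 CPM at 24 h, against 163, 156 and 133 CPM at 0 h, and STP4 (log2 1.37) rose, while the vacuolar carriers SWEET16 and SWEET17 fell (log2 -1.57 and -1.19).

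Senescence regulators rose, among them NAC092, also known as ORE1, with 146, 165 and 112 CPM at 24 h, against 3.59, 5.33 and 4.51 CPM at 0 h, and NAP with 75.2, 87.7 and 53.8 CPM at 24 h, against 1.84, 1.65 and 2.11 CPM at 0 h. In all, 14 of 15 members rose and 1, the sugar carrier gene SAG29, fell (log2 -2.60), with a median of 2.58. Col-0 had a median of 2.53, and no member passed the test of the difference between cat2 and Col-0 (at most 1 in either direction over the other settings tried). Cell death regulators were mixed, with 9 of 18 higher and 6 lower. BI1, an inhibitor of death in the endoplasmic reticulum, rose with 184, 190.1 and 141 CPM at 24 h, against 62.2, 77.9 and 63.2 CPM at 0 h and differed from Col-0 by 1.58, SE 0.17, adjusted p = 9.75e-07. The metacaspase MC1 rose (log2 1.24), while MC9 and the nuclease RNS3, genes of developmental death in xylem, fell (log2 -2.01 and -2.03). Xylem markers fell beside them, as given further below, and their part in the fall of MC9 and RNS3 was not tested.

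Jasmonate genes fell in cat2. Of 14 synthesis genes 11 fell, 9 at least 2-fold (median -2.03), and of 12 JAZ repressors, which are direct targets of the pathway, 9 fell and 1 rose (median -1.17). The number of JAZ genes that fell was 4 without replicate 2 at 0 h and 3 without replicate 3 at 24 h. LOX2, the plastid lipoxygenase of the first step, measured 161, 135 and 170.4 CPM at 24 h, against 2084, 2687 and 2884 CPM at 0 h (log2 -4.04, SE 0.35, adjusted p = 6.09e-09). AOS, allene oxide synthase, measured 56.9, 53.9 and 50.4 CPM at 24 h, against 412, 561 and 616 CPM at 0 h (log2 -3.30, SE 0.41, adjusted p = 1.00e-06). JAZ2 measured 44.9, 39.3 and 43.1 CPM at 24 h, against 113, 188 and 145 CPM at 0 h. These genes were low in all 24 h libraries, without overlap. The enzymes of beta-oxidation ACX1 and KAT2 rose (log2 2.26 and 1.63), as did JAZ11 (log2 0.50). MYC2, the main transcription factor of the pathway, fell (log2 -2.42). In Col-0 no JAZ gene fell and 1 rose, and in cat2shr none fell and 2 rose. The fall of JAZ2 in cat2 started from a higher level, with 149 ± 37.6 CPM at 0 h in cat2 and 38.5 ± 9.02 CPM in Col-0. At 24 h JAZ2 averaged 42.4 ± 2.88 CPM in cat2 and 36.7 ± 3.81 CPM in Col-0 (SD, n = 3 each). These gaps between the genotypes were not tested. LOX2 differed from Col-0 by -3.52, SE 0.45, adjusted p = 9.00e-06 and from cat2shr by -3.41, SE 0.45, adjusted p = 2.41e-05, and MYC2 differed from Col-0 by -2.11, SE 0.60, adjusted p = 0.00955. Output genes split by branch: the defensins PDF1.2 and PDF1.2b, which need ethylene too, rose (log2 5.46 and 4.88), and VSP2 of the MYC2 branch fell (log2 -2.60). The defensin genes are near-identical copies.

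Salicylic acid signalling genes had a wide spread between libraries. Of 27 members 10 rose, a share near the 38.7% of all genes tested, and 1 fell (median 0.80), against a median of -0.31 in cat2shr and 0.25 in Col-0, and 10 had a higher response in cat2 than in cat2shr. That count was 6 without replicate 2 of cat2 at 24 h or without replicate 1 of cat2shr at 0 h. CBP60G, a factor that drives salicylic acid synthesis, measured 72.1, 110.3 and 59.9 CPM at 24 h, against 19.0, 19.4 and 7.04 CPM at 0 h, with replicate 2 highest and replicate 3 lowest at 24 h and no overlap with 0 h. It differed from cat2shr by 3.17, SE 0.45, adjusted p = 4.99e-05. SAG101, a partner of EDS1, rose (log2 0.80) and differed from cat2shr by 1.65, SE 0.15, adjusted p = 2.86e-07. PR1, the classical marker, measured 14.3, 21.1 and 0.257 CPM at 24 h, against 1.14, 25.6 and 1.18 CPM at 0 h, so that the times overlapped, and it was not called (log2 0.34, adjusted p = 0.785). Without replicate 2 at 0 h it was called as higher (log2 3.28, adjusted p = 0.03), and without replicate 1 or 3 at 0 h or replicate 2 at 24 h its direction turned. Ethylene genes rose in 17 of 20 cases (median 2.30), with the receptor gene ETR2 at log2 2.38. The median was 1.83 in cat2shr and 1.93 in Col-0.

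Genes of abscisic acid, dehydration and cold showed 13 of 28 higher and 6 lower (median 0.33), beside 38.7% and 36.3% of all genes tested. The cold genes CBF3 and COR15A fell (log2 -3.75 and -3.35), with COR15A at 8.27, 7.72 and 10.5 CPM at 24 h, against 159.6, 70.7 and 40.6 CPM at 0 h. ABF4, a factor of abscisic acid responses (log2 1.28), and CYP707A3, which degrades the hormone (log2 1.42), rose. In Col-0 the list went down on the whole, with 6 higher and 16 lower (median -0.59), and 10 members differed upward in cat2 (6 without replicate 2 of Col-0 at either time, and 5 without its replicate 3 at 24 h). The phosphatase gene ABI2 differed from Col-0 by 1.49, SE 0.31, adjusted p = 0.000989. In cat2shr 12 rose and 5 fell. Of 53 WRKY factors that passed the filter 25 rose (median 0.61), beside 38.7% of all genes tested. WRKY15, for example, measured 333, 398 and 237 CPM at 24 h, against 49.8, 56.6 and 47.5 CPM at 0 h.

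Aliphatic glucosinolate genes had the lowest median of the lists examined. All 18 members that passed the filter fell, each at least 2-fold, with a median log2 change of -4.50 and a range from -6.25 to -2.16. CYP83A1, an enzyme of the core pathway, measured 5.17, 8.44 and 7.21 CPM at 24 h, against 206, 202 and 199.8 CPM at 0 h (log2 -4.87, SE 0.33, adjusted p = 2.60e-10). SOT18, the sulfotransferase of the last step, measured 13.3, 11.4 and 13.6 CPM at 24 h, against 86.9, 82.7 and 72.4 CPM at 0 h. CYP79F2, which makes the aldoximes, measured 0.103, 0.273 and 0.142 CPM at 24 h, against 12.6, 13.2 and 14.3 CPM at 0 h, and its tandem copy CYP79F1 fell (log2 -5.29). At 24 h 7 of the 18 members averaged under 1 CPM, and the times did not overlap in any of the 18. The regulators fell with the enzymes, MYB28 (log2 -2.64), MYB29 (log2 -3.48) and MYB76 (log2 -4.14). The list fell in cat2shr and Col-0 too, with medians of -2.15 and -3.60, and 16 of 18 had a lower response in cat2 than in cat2shr. IMS2, a methylthioalkylmalate synthase, measured 0.0689, 0.171 and 0.285 CPM at 24 h, against 11.9, 11.7 and 14.3 CPM at 0 h and differed from cat2shr by -5.26, SE 0.45, adjusted p = 1.49e-07. The indole branch was mixed, with 7 of 17 higher and 6 lower: MYB51 rose to 102, 112 and 88.3 CPM at 24 h, against 14.5, 13.3 and 6.88 CPM at 0 h, and MYB34 fell (log2 -4.25). Among genes of glucosinolate breakdown, the myrosinases TGG1 and TGG2 were not called (log2 -0.16 and -0.02), although TGG1 was called as lower without replicate 1 or replicate 2 at 0 h (log2 -0.23 in both), the specifier protein gene ESP fell (log2 -3.24) and NSP5 rose (log2 3.89).

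Sulfur deficiency genes rose in cat2 where they fell in Col-0. Of 12 members 8 rose and 2 fell in cat2 (median 1.02), 11 rose and none fell in cat2shr (median 1.48), and 1 rose and 8 fell in Col-0 (median -1.47). LSU2, a small protein induced by low sulfur, measured 13.0, 14.4 and 11.7 CPM at 24 h, against 6.84, 4.82 and 4.03 CPM at 0 h in cat2 (log2 1.32, SE 0.19, adjusted p = 4.73e-06). It differed from Col-0 by 3.88, SE 0.40, adjusted p = 5.61e-07. LSU1 measured 5.99, 8.37 and 6.64 CPM at 24 h, against 1.44, 1.58 and 1.92 CPM at 0 h and differed by 2.83, SE 0.65, adjusted p = 0.00208. The sulfate importer SULTR1;2 rose (log2 1.42) and differed from Col-0 by 1.66, SE 0.30, adjusted p = 0.000196. APR1, the reductase of sulfate assimilation, was at log2 0.77 in cat2 and -2.05 in Col-0, a difference of 2.82, SE 0.31, adjusted p = 1.70e-06. The members that fell were the vacuolar exporter SULTR4;2 (log2 -0.55) and GGCT2;1, which degrades glutathione (log2 -1.15). By the test of the difference 9 of 12 members were higher in cat2 than in Col-0, and 4 were lower in cat2 than in cat2shr (7 without replicate 2 of cat2shr at 0 h).

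**Figure D5:**
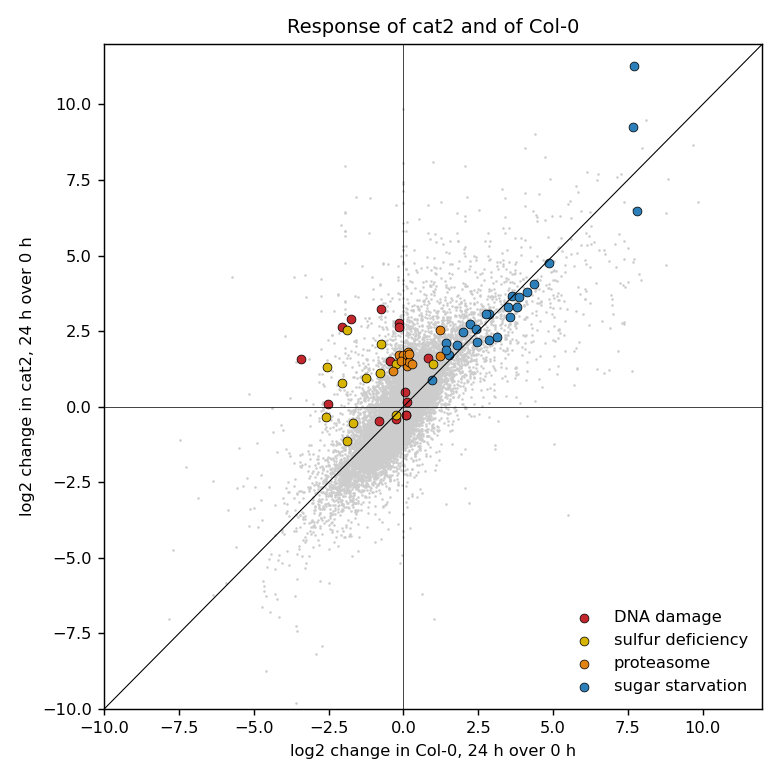
Each point is a gene, with its log2 change in Col-0 on the horizontal axis and in cat2 on the vertical axis (24 h over 0 h, n = 3 libraries per group), and lists are coloured. Sulfur deficiency genes and the DNA damage genes that rose lie above the diagonal, with several in the upper left quadrant, the proteasome lies above it near a Col-0 change of 0, and starvation genes lie along it.

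The lists of other mineral nutrients were mixed, beside 38.7% higher and 36.3% lower over all genes tested. Of 13 iron deficiency genes 8 fell (median -0.75), while the ferritin FER1, an iron store of plastids, measured 368, 316 and 362 CPM at 24 h, against 45.4, 29.8 and 40.5 CPM at 0 h and FER3 fell (log2 -1.39). The iron regulator BHLH100 fell (log2 -2.67). Of 24 phosphate starvation genes 9 rose, a share near that of all genes tested, and 5 fell (median 0.04). The sulfolipid enzymes SQD1 and SQD2 were lower (log2 -1.12 and -1.92) and the exporter PHO1 higher (log2 1.92). Of 14 nitrogen genes 7 rose and 3 fell. The nitrate transporter NRT1.1 and the nitrite reductase NIR1 fell (log2 -1.53 and -1.02), and the cytosolic glutamine synthetase GLN1;3 rose (log2 0.52).

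Growth genes fell. Of 16 SAUR proteins, short auxin-induced proteins of cell expansion, 13 fell and 1 rose (median -3.02), and of 20 expansins that passed the filter 14 fell (median -1.53). EXPA6 measured 6.61, 4.75 and 8.55 CPM at 24 h, against 68.4, 56.2 and 68.9 CPM at 0 h (log2 -3.27, SE 0.23, adjusted p = 4.24e-10). SAUR20 measured 0.689, 0.376 and 0.684 CPM at 24 h, against 7.01, 8.70 and 9.53 CPM at 0 h, and SAUR24 fell (log2 -4.01). The SAUR genes of this cluster are near-identical copies. SAUR36, which is known for its role in leaf senescence, was the member that rose, with 16.0, 20.6 and 13.0 CPM at 24 h, against 3.22, 3.34 and 3.07 CPM at 0 h. Aux/IAA repressors were called in both directions, more of them lower than higher. IAA8 measured 77.6, 71.4 and 85.2 CPM at 24 h, against 243, 243 and 234 CPM at 0 h (log2 -1.62, SE 0.058, adjusted p = 6.93e-14), and IAA19 fell (log2 -3.38). IAA10 and IAA18 were among those that rose (log2 1.34 and 0.78). Xyloglucan endotransglucosylases were 6 higher and 11 lower of 23 (median -1.55). Of 11 PIP aquaporins 5 fell and PIP1A rose (log2 1.10), beside 36.3% of all genes tested that fell and 38.7% that rose. The SAUR and expansin lists also fell in Col-0, with medians of -2.20 for SAUR proteins and -1.26 for expansins, and 5 of 16 SAUR members, SAUR36 among them, had a lower response in cat2 (1 without replicate 2 of cat2 at 24 h).

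Flavonoid genes moved in both directions. C4H, of the shared phenylpropanoid steps, measured 255, 279 and 216 CPM at 24 h, against 61.8, 72.7 and 65.9 CPM at 0 h and differed from Col-0 by 1.71, SE 0.16, adjusted p = 2.24e-07. CHS, which makes chalcone, fell (log2 -2.27), as did the anthocyanin regulator MYB75 (log2 -4.26). In all, 5 of 16 synthesis genes rose and 8 fell (median -0.69). Of 19 clock genes 6 rose and 4 fell (median 0.22), shares below the 38.7% and 36.3% of all genes tested. Among them PRR7 was higher (log2 0.68) and PRR3 lower (log2 -1.47). Of 7 genes of nucleolar ribosome assembly 4 rose and 1 fell.

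Markers of cell types moved with these gene groups. The 5 epidermis markers all fell, and their summed level was 379 to 454 CPM at 24 h, against 852 to 1045 CPM at 0 h. Of these, ATML1, which specifies the epidermis, measured 45.4, 41.6 and 44.3 CPM at 24 h, against 87.5, 82.2 and 90.2 CPM at 0 h (log2 -0.99, SE 0.067, adjusted p = 1.04e-10), and the lipid transfer protein LTP1 fell (log2 -1.31). Of 8 xylem and secondary wall markers 7 fell and none rose, with a summed level of 53.2 to 68.8 CPM at 24 h, against 86.8 to 105 CPM at 0 h. XCP1, a protease of xylem vessels, fell (log2 -1.77) and differed from cat2shr by -1.39, SE 0.29, adjusted p = 0.00122, and the cellulose synthases CESA4 and IRX3 fell (log2 -0.86 and -0.55). By the test of the difference 7 of the 8 were lower in the response of cat2 than in that of cat2shr.

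Stomatal lineage markers fell in 3 of 6 cases, with the polarity gene BASL at log2 -2.18, TMM at -0.66 and SPCH at -1.0, and a summed level of 13.7 to 23.6 CPM at 24 h, against 29.3 to 32.0 CPM at 0 h. The 5 guard cell markers had a summed level of 71.7 to 76.8 CPM at 24 h, against 76.0 to 82.3 CPM at 0 h, in which FMA rose (log2 0.34) and KAT1 and MYB60 fell (log2 -0.75 and -0.27). The call on MYB60 was lost without replicate 2 at 0 h or without replicate 1 or 2 at 24 h (adjusted p from 0.0572 to 0.135). The 5 phloem markers had a summed level of 321 to 386 CPM at 24 h, against 444 to 455 CPM at 0 h, of which SUC2 and SWEET11 fell (log2 -0.33 and -0.58) and APL rose (log2 0.20). The call on SUC2 was lost without replicate 2 at 24 h (adjusted p = 0.0853), and that on APL when any library but replicate 2 at 24 h was left out (adjusted p from 0.0511 to 0.292). Of 3 bundle sheath and endodermis markers 2 fell, among them SCR, the partner of SHORT-ROOT (log2 -0.87), which differed from Col-0 by -0.91, SE 0.11, adjusted p = 2.37e-06. SHR itself measured 5.75, 4.41 and 5.76 CPM at 24 h, against 8.48, 7.01 and 7.93 CPM at 0 h and fell (log2 -0.56, SE 0.12, adjusted p = 0.00041). In cat2shr SHR averaged 0.466 ± 0.0548 CPM at 24 h and 0.585 ± 0.0666 CPM at 0 h (SD, n = 3). Markers of all these leaf cell types were detected in both groups. The phloem markers SEOR1 and SWEET12 and the stomatal lineage markers MUTE, EPF1 and EPF2 were not called. By summed level, the markers of epidermis, xylem, stomatal lineage and phloem held a smaller share of the counts at 24 h, as did SCR and SHR. The part of these shifts in the other results was not tested.

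Of 4 shoot meristem markers 2 passed the filter and both rose, with a summed level of 1.79 to 4.65 CPM at 24 h, against 0.192 to 1.98 CPM at 0 h. STM, a homeobox gene of the meristem, measured 0.758, 2.77 and 1.60 CPM at 24 h, against 0.771, 0.270 and 0.0640 CPM at 0 h, which overlapped between the times (adjusted p = 0.0173). Neither of the 2 was called without replicate 2 or 3 at 0 h or without replicate 2 at 24 h (adjusted p of STM from 0.0641 to 0.0905). Of 5 root markers 2 passed, with a summed level of 75.2 to 89.7 CPM at 24 h, against 116 to 159 CPM at 0 h, nearly all of it from the beta-glucosidase BGLU23, which fell (log2 -0.71). The other 3 root markers, COBL9, RHD6 and CASP1, had at most 4 counts in any cat2 library. Of 8 floral markers 6 passed and 4 rose, with a summed level of 2.96 to 8.47 CPM at 24 h, against 1.01 to 1.79 CPM at 0 h. PI, which specifies petals and stamens, measured 1.62, 2.05 and 1.28 CPM at 24 h, against 0.101, 0.506 and 0.512 CPM at 0 h. A fit on the 6 cat2 libraries alone called 2 of the 6. In cat2shr and in Col-0 none of the 6 was called. By the test of the difference only AP1 and SEP2 differed from the Col-0 response (adjusted p = 0.0382 and 0.0164). Only PI and SEP3 differed from the cat2shr response (adjusted p = 0.0130 and 0.0391). Floral gene levels were near 1 CPM, and the labels do not say whether any plant had begun to flower.

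Among genes with a mean of at least 5 CPM over the 6 cat2 libraries and no overlap between the times, the largest rises were led by the carbon starvation gene DIN2 (AT3G60140), a beta-glucosidase induced in the dark, with 441, 600.0 and 220.4 CPM at 24 h, against 0.201, 0.135 and 0.160 CPM at 0 h (log2 11.28, SE 1.90, adjusted p = 3.30e-05). GLYI7, a glyoxalase, measured 243, 339 and 109.6 CPM at 24 h, against 0.268, 0.371 and 0.320 CPM at 0 h. The sucrose carrier SUC7 measured 53.1, 92.5 and 17.9 CPM at 24 h, against 0.134, 0.573 and 0.160 CPM at 0 h, and it is a close copy of other SUC genes. In each of these replicate 3 was the lowest of the 24 h libraries and still far above 0 h. CYP710A1, a sterol desaturase (log2 7.61), the peroxidase gene AT5G39580 (log2 7.50) and the CAP160 protein gene AT4G25580 (log2 8.65) rose by similar amounts, as did LEA7, with 16.7, 21.8 and 1.23 CPM at 24 h, against 0.0335, 0 and 0.0959 CPM at 0 h. MIOX4, a myo-inositol oxygenase, measured 16.1, 19.7 and 5.13 CPM at 24 h, against 0, 0 and 0.0640 CPM at 0 h, and no fold is given because the 0 h libraries held 2 counts in all. Under the same limits the largest falls, besides glucosinolate genes, were TPS03, a terpene synthase, with 0.207, 0.0683 and 0.484 CPM at 24 h, against 18.6, 38.1 and 33.0 CPM at 0 h, ANNAT4, an annexin, with 2.45, 1.88 and 2.37 CPM at 24 h, against 99.7, 141 and 129 CPM at 0 h, and the copper amine oxidase gene AT1G31690 (log2 -6.20). FMO GS-OX1 (log2 -5.94), AOP2 (log2 -5.83) and IPMI1 (log2 -5.07), among the 10 largest falls under these limits, act in glucosinolate synthesis or side chain modification. At 24 h the 5 most abundant genes were GRP3S, UBQ10, CAB1, AT4G01870 and RBCS1A, and AT4G01870, annotated as a tolB-like protein, measured 4709, 5037 and 3317 CPM at 24 h, against 413, 403 and 356 CPM at 0 h. At 0 h they were CAB1, RBCS1A, LHB1B2, PSBO1 and LHCB5, all of photosynthesis.

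Over all genes, the cat2 response differed from that of Col-0 for 7781 of 20347 genes (38.2%), 3825 upward and 3956 downward. With libraries scaled by their totals alone the split was 2537 upward and 5318 downward, and the median difference over all genes tested was -0.18 in place of -0.03. Other settings moved the split as well. Without a filter it was 2924 upward and 4629 downward, and without replicate 2 of Col-0 at 0 h 2493 and 4673. With only the libraries of cat2 and Col-0 it was 3830 and 3840. The balance of directions thus depended on the setting. The cat2 response differed from that of cat2shr for 6288 genes (30.9%), 3124 upward and 3164 downward. Of the genes called in cat2, 9677 were also called in Col-0 in the same direction, 577 in the opposite direction and 5011 not at all. Of the 577, 301 were higher in cat2 and lower in Col-0. With cat2shr 10975 genes were shared in direction and 367 opposite.

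Among genes with a mean of at least 5 CPM over the libraries compared, the largest upward differences from Col-0 included chaperone and damage genes. AT1G71000, annotated as a DnaJ-domain chaperone, measured 77.8, 68.7 and 79.3 CPM at 24 h, against 1.17, 1.58 and 0.736 CPM at 0 h in cat2. In Col-0 its means were 0.104 ± 0.146 CPM at 24 h and 0.451 ± 0.180 CPM at 0 h (SD, n = 3), and the responses differed by 8.12, SE 1.07, adjusted p = 1.22e-05. The gamma response gene GR1 (AT3G52115), which is induced by ionising radiation, measured 45.8, 43.0 and 50.3 CPM at 24 h, against 3.02, 4.21 and 3.33 CPM at 0 h and differed by 5.90, SE 0.39, adjusted p = 1.48e-09. It shares its symbol with a glutathione reductase and is a different gene. AT3G41762, of no annotated function (difference 5.83), the dehydration factor DREB19 (5.22) and the HSP20-like gene AT1G07400 (4.94) came next. The call on DREB19 was lost without replicate 1 or replicate 2 of Col-0 at 0 h (adjusted p = 0.0741 and 0.0523). The largest downward differences included 4 genes with a larger rise in Col-0. TAT3, a tyrosine aminotransferase of jasmonate responses, fell in cat2 (log2 -3.20) and was not called in Col-0 (log2 2.20), a difference of -5.40, SE 1.55, adjusted p = 0.0105, which was not called without replicate 1 of Col-0 at 24 h (-4.0, adjusted p = 0.0755). AT3G20340 rose by 1.26 in cat2 and 6.48 in Col-0 (difference -5.22), and CML41, a calmodulin-like protein, by 1.23 in cat2 and 5.79 in Col-0 (difference -4.55). The rise of CML41 in cat2 was not called without replicate 3 at 0 h or replicate 2 at 24 h (adjusted p = 0.128 and 0.111). ChlAKR, an aldo-keto reductase of plastids, rose by 2.60 in cat2 and 6.92 in Col-0 (difference -4.31). CYP81D11, a cytochrome P450 induced by xenobiotics, was not called in cat2 (log2 0.19) and rose in Col-0 (log2 4.41, difference -4.22). In cat2 it measured 387, 489 and 364 CPM at 24 h, against 327, 457 and 305 CPM at 0 h. At 0 h it averaged 363 ± 82.2 CPM in cat2 and 7.92 ± 0.405 CPM in Col-0 (SD, n = 3 each).

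Under the same limit the largest upward differences from cat2shr, after GAT1_2.1, included defence genes. CML37, a calmodulin-like protein, measured 26.3, 29.4 and 13.3 CPM at 24 h, against 3.86, 1.48 and 0.192 CPM at 0 h in cat2, and was at log2 -2.76 in cat2shr without being called (adjusted p = 0.0544), a difference of 6.40, SE 1.67, adjusted p = 0.00763. AT1G30700, a berberine bridge enzyme family gene, differed by 5.81, AT2G45220, also known as PME17, a pectin methylesterase, by 5.31, and AT4G14370, annotated as a disease resistance protein of the TIR-NBS-LRR class, by 5.24. Without replicate 2 of cat2shr at 0 h the differences of CML37 and AT1G30700 were not called (adjusted p = 0.0647 and 0.0634). In these 4 genes the 24 h libraries of cat2 had replicate 2 highest and replicate 3 lowest. Downward differences were led by IMS2, TPS03 (-3.55), ANNAT4 (-3.48), LOX2 and FMO GS-OX1 (-3.20), of which ANNAT4 and TPS03 also fell in cat2shr, with log2 changes there of -2.30 and -3.24. The difference of TPS03 was not called when any library was left out except replicate 1 of cat2 at 0 h, replicate 3 of cat2 at 24 h and replicate 3 of cat2shr at 0 h (adjusted p from 0.0529 to 0.114 without the others). Comparisons that share the cat2 libraries are not independent, and the differences from Col-0 and from cat2shr both rest on the same 6 libraries of cat2.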

How the data were processed

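RNA from shoots was sequenced in 24 libraries of 4 genotypes at 0 h and 24 h. The authors deposited 1 table of raw read counts per locus (33602 loci). Per the submitters' processing notes, the tools were featureCounts (Subread 1.4.6), TopHat2 2.1.0 and Trim Galore 0.3.3, and the build was TAIR10. The strand setting is not given in the sources used here, so antisense and overlapping genes cannot be told apart. Libraries were grouped by the labels and held 26.43 to 40.11 M counts in the groups used.

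Counts were fitted with edgeR 4.0.16 (R 4.3.3) in 1 quasi-likelihood model of all 24 libraries, 1 mean per group, after filterByExpr (20347 genes) and TMM scaling. Differences between responses are contrasts of the same fit, and Benjamini-Hochberg adjustment covered all genes tested. No label says that replicates came from separate cultures, so p-values reflect the spread of these libraries alone, which may be technical. Replicates of cat2 differed by more than sampling noise. Alternatives were other scalings and filters, DESeq2 1.42.0, a replicate block, only the groups compared, and each library left out. On simulated data with 50 changed genes per size among 20347, edgeR recovered 92% of those of log2 1 in cat2. That rate does not carry over to the data, where 75% of genes were called.

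The members and lists were chosen with earlier results of these data known. Of 859 list entries 36 whose locus and symbol did not match RefSeq's TAIR10.1 table were dropped, and 6 further lists are gene families taken by name. Named genes are the catalases and SHR, the 10 largest rises and falls without overlap and the 5 largest differences in each direction among genes of at least 5 CPM on average, the 5 most abundant genes per time, up to 6 per list, and the cell type markers. BRCA1, SMR7, NAC053, NAC078, HSP101, HSFA2, NAC103, BIP3, OPR1, AOX1A, APX1, AGT, PORC, AOS, PR1, MYB28, MYB29, MYB76, TGG1, TGG2, APR1 and PHO1 were chosen after their values were seen. Promoter windows of 250 bases came from the RefSeq TAIR10.1 genome and annotation. The values of 2 list members are not reported here.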

Additional observations from a re-analysis of the deposited data

Results flagged for a closer look

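The results below are listed because the change over 24 h of stress in cat2 differed from the change in another genotype by edgeR's test of the difference itself (adjusted p under 0.05 over all genes tested). Over all genes, 7781 responses differed between cat2 and Col-0 and 6288 between cat2 and cat2shr. All values are log2 differences of responses, and those from Col-0 come first.

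Among genes of DNA repair and the cell cycle the differences from Col-0 were 4.72 for BRCA1, 4.75 for TSO2, 3.44 for CYCB1;1 and 5.90 for the gamma response gene GR1. Among genes of protein quality control they were 3.83 for Fes1A, 3.85 for HSP101, 2.16 for CLPB4, 1.58 for HSFA8, 8.12 for AT1G71000 and 4.94 for AT1G07400. The proteasome subunits RPT2a and RPN12a differed by 1.71 and 1.64, the factor NAC103 by 3.07, the cell death inhibitor BI1 by 1.58 and the autophagy receptor NBR1 by 1.18. Sulfur genes differed by 2.83 for LSU1, 3.88 for LSU2, 2.82 for APR1 and 1.66 for SULTR1;2. Further upward differences were 3.16 for SUS1, 1.71 for C4H, 1.49 for ABI2, 5.22 for DREB19 and 5.83 for AT3G41762. Downward differences from Col-0 were -3.52 for LOX2, -2.11 for MYC2, -5.40 for TAT3, -1.35 for HCEF1, -1.76 for APX1, -0.91 for SCR, -4.55 for CML41, -4.31 for ChlAKR, -4.22 for CYP81D11 and -5.22 for AT3G20340.

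The differences from cat2shr were upward by 1.22 for RPN12a, 7.15 for GAT1_2.1, 6.40 for CML37, 5.81 for AT1G30700, 5.31 for AT2G45220, 5.24 for AT4G14370, 3.17 for CBP60G and 1.65 for SAG101. They were downward by -5.26 for IMS2, -3.55 for TPS03, -3.48 for ANNAT4, -3.41 for LOX2, -3.20 for FMO GS-OX1 and -1.39 for the xylem marker XCP1. The xylem markers as a list fell to a smaller share of the counts at 24 h in cat2, and their part in the differences from cat2shr was not tested.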

How the results depend on the processing

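The 15265 genes called in cat2 and the 6965 changed at least 2-fold stayed within 1.5 times under all alternatives tried, as did the 7781 and 6288 genes that differed from Col-0 and cat2shr. With DESeq2 these counts were 15172, 6933, 8052 and 6611, with relative log expression factors 15262, 6952, 7824 and 6286, with library totals alone 14983, 7015, 7855 and 5781, without a filter 15461, 7456, 7553 and 5833, with at least 5 CPM in 3 libraries 12816, 5114, 7382 and 5874, and with only the libraries of the groups compared 14416, 6731, 7670 and 5250. Leaving out 1 library at a time gave 14353 to 15142 called, 6426 to 7560 at least 2-fold, 6645 to 8531 against Col-0 and 5120 to 7045 against cat2shr. Without replicate 3 of cat2 at 24 h, which stood nearest to 0 h, 15142 genes were called and 7560 changed at least 2-fold.

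With the replicate number as a block 15368 genes were called, 6976 at least 2-fold, and 8240 and 6713 differed from Col-0 and cat2shr. The deviations of same-numbered cat2 libraries correlated by -0.101, 0.35 and 0.185 for numbers 1, 2 and 3, so the numbers were not taken to pair the libraries.

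Direction turned for 3 genes, none of which was called in the fit of all 24 libraries. PR1 was called as higher without replicate 2 of cat2 at 0 h. CAT3 was at -0.0617 with library totals alone, -0.0163 without a filter and -0.00554 with only the cat2 libraries. With each library left out in turn CAT3 ranged from -0.102 to 0.135, PR1 from -0.384 to 3.28 and TGG2 from -0.129 to 0.00716. The causes were not tested. Of 1534 counts of list members called in 1 direction over the alternatives, 86 moved by over 1.5 times, 74 of them for counts of 3 or fewer. The stricter filter left 7 of the 13 SAUR genes that fell and no floral marker.

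In simulated counts, edgeR recovered 44% of cat2 changes of log2 0.5 and 92% of those of log2 1, and 12% and 72% of differences between cat2 and Col-0 of the same sizes. The simulation changed 50 genes at each size among 20347, with a spread taken from a trend over expression level. In the data 75% of genes were called, and the adjusted p depends on that share, so the recovery rates do not carry over to the data. A small change or difference that was not called may have been missed.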
